A study of Mus musculus with 8 samples.

Results

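The endoplasmic reticulum (ER) stress genes described here are 10 genes of the unfolded protein response, chosen by name from a table of 23282 gene lines: Creb3l1, Ern2, Xbp1, Atf4, Ddit3, Hspa5, Hsp90b1, Dnajb9, Sdf2l1 and Herpud1. Each name matched 1 line, and all 10 were among the 14567 genes that passed the filter on low counts. The choice was made with the levels of these genes in all 8 libraries already known, so the levels and the differences between groups are given as a description and support nothing by themselves. RNA of intestinal tissue of wild type C57BL/6 mice had been sequenced from the 3' end of polyadenylated transcripts in 8 libraries, 2 in each of 4 groups. The ExDSS group received 1 mg of bovine colostrum exosomes, small vesicles secreted into milk, by daily gavage over 3 weeks, followed by 6 days on water with 3% dextran sodium sulfate (DSS). DSS is a polysaccharide that damages the lining of the gut and so causes experimental colitis. The Ex group received the exosomes without DSS, the PC group received buffer and then DSS, and the NC group is the saline control with neither agent. The sources used here give neither gut region nor age nor sex. Separate mice for the 2 libraries of each group are not stated in the labels, and every SD and SE below covers library-to-library spread, possibly technical only.

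Secretory cells fold large amounts of protein in the ER, and the unfolded protein response adjusts folding capacity to that load. The sensor IRE1 cuts Xbp1 messenger RNA so that it encodes an active transcription factor, PERK phosphorylates a translation factor and so favours synthesis of ATF4, and ATF6 and its relatives are released from the membrane by cleavage in the Golgi. In the gut, goblet cells and Paneth cells depend on this response, and Ern2 encodes IRE1β, a form of IRE1 found in the epithelium of mucosal surfaces. Counts at the 3' end measure the amount of each messenger RNA. They do not show whether Xbp1 was spliced or whether a sensor was active.

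Several libraries stood apart from the rest, and these facts touch every result below. Total counts were between 8813622 and 12308537 in 7 libraries and 1163147 in Ex 2, where the ribosomal precursor Rn45s took 53.5% of the counts. The number of genes with a count was 9825 and 11874 in ExDSS, 16374 and 8760 in Ex, 16787 and 16790 in PC, and 16123 and 12683 in NC. Levels are CPM, counts scaled to a common library size after adjusting each library by TMM, edgeR's factor set from the bulk of genes. The 10 pancreatic acinar marker genes summed to 209000 CPM in ExDSS 1 and 82700 CPM in NC 2, and to between 17.0 and 92.3 CPM in the other 6 libraries. The 7 epithelial markers summed to between 3040 and 4410 CPM in 7 libraries and to 41.7 CPM in Ex 2, where Cdx2 had no count. The 7 neutrophil markers, which colitis is known to raise, summed to 1870 to 2920 CPM in ExDSS, 7.44 to 11.5 CPM in Ex, 10.5 to 11.5 CPM in PC and 2140 to 2340 CPM in NC. The neutrophil levels therefore go against the labels PC and NC, and all statements below refer to the libraries as labelled. In bulk tissue, fewer cells of a type and less RNA per cell cannot be told apart. The 6 Paneth cell markers summed to at most 28.6 CPM in any library, and between 1 and 5 of them had no count in each library. Gene coordinates below are those of the deposited table, for which the submitters' notes name mm9; they overlap the genes of these names on GRCm38.

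Creb3l1 (chr2:91982328-92024170, minus strand) encodes OASIS, a membrane-bound relative of ATF6 known from osteoblasts and from maturing goblet cells, and had its lowest group mean in ExDSS. Creb3l1 was at 1.23 and 5.19 CPM in ExDSS 1 and 2, 96.7 and 1.49 CPM in Ex 1 and 2, 139 and 108 CPM in PC 1 and 2, and 43.4 and 26.4 CPM in NC 1 and 2. The ExDSS libraries were below all PC and NC libraries, the PC libraries were above all others, and the Ex libraries were 65.0-fold apart. The level in Ex 2 rests on 1 count, for which the 95% Poisson interval runs from 0.0377 to 8.30 CPM, while the 9 counts of ExDSS 1 give 0.564 to 2.34 CPM. These intervals cover counting error only. The 3 libraries with Creb3l1 under 10 CPM were also the 3 with the fewest genes detected, and the part this played was not tested. The 8 goblet cell markers summed to between 20000 and 54600 CPM in ExDSS, against 14200 to 19300 CPM in PC. The 6 fibroblast markers summed to 3450 to 3680 CPM in ExDSS, against 1540 to 2220 CPM in PC. Such sums follow the most abundant markers, and the part of these cells in the Creb3l1 levels was not tested.

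Ern2 (chr7:122169893-122186216, minus strand), the epithelial form of the sensor, was at 18.8 and 1.26 CPM in ExDSS, 17.1 and 0 CPM in Ex, 32.1 and 27.1 CPM in PC, and 17.9 and 49.7 CPM in NC. Only the PC libraries lay close together. No count was found in Ex 2, for which the 95% Poisson interval reaches 5.49 CPM. The lower ExDSS level came from ExDSS 2, where the goblet cell markers had their highest sum of 54600 CPM. Xbp1 (chr11:5520641-5525993, plus strand), the transcription factor whose messenger RNA the sensor cuts, was at 11.9 and 34.1 CPM in ExDSS, 88.4 and 62.5 CPM in Ex, 110 and 93.9 CPM in PC, and 142 and 12.4 CPM in NC. Both ExDSS libraries were below all Ex and PC libraries, while the NC libraries held both the highest and nearly the lowest level. The lowest levels, in ExDSS 1 and NC 2, were in the libraries with pancreatic acinar genes, and the part this played was not tested. In ExDSS 2, with 34.1 CPM of Xbp1, 7 of the 10 acinar markers had no count. The 6 plasma cell markers summed to 792 to 1460 CPM in ExDSS, against 776 to 794 CPM in PC (plasma cells also need Xbp1). Of the 6, Tnfrsf17, Prdm1 and Irf4 had no count in ExDSS 1 and Irf4 had none in ExDSS 2, while all 6 had counts in both PC libraries. The part of plasma cells in the Xbp1 levels was not tested.

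**Figure D1:**
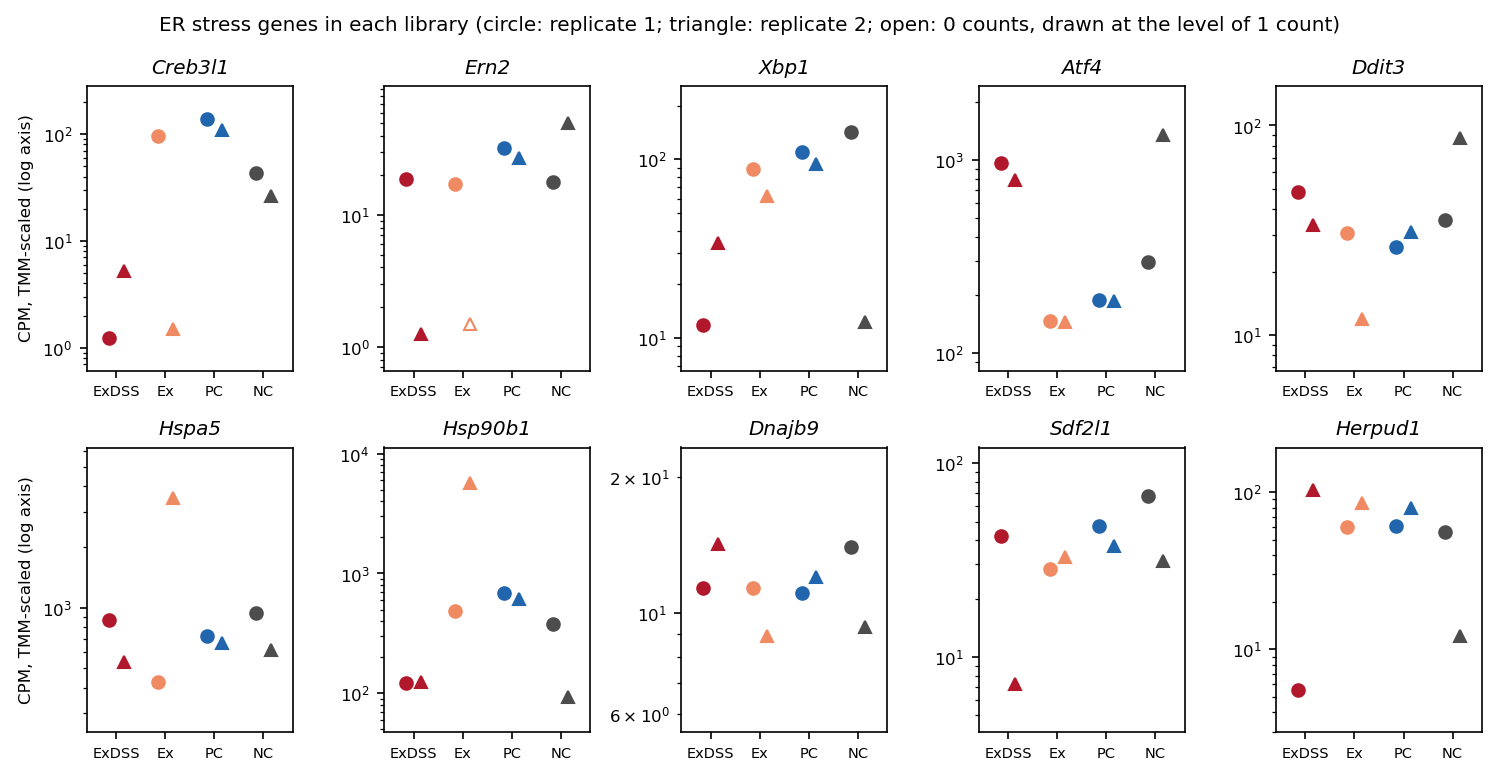
Normalised CPM on a log axis for each of the 10 genes in the ExDSS, Ex, PC and NC libraries, with a circle for replicate 1, a triangle for replicate 2 and an open symbol at the level of 1 count where no count was found. Atf4 lies between 794 and 965 CPM in both ExDSS libraries and between 144 and 189 CPM in all Ex and PC libraries, while Creb3l1 and Xbp1 are lower in ExDSS than in PC.

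Atf4 (chr15:80255184-80257545, plus strand) encodes the transcription factor of the PERK branch and of the wider integrated stress response. Atf4 was at 965 and 794 CPM in ExDSS, 147 and 144 CPM in Ex, 189 and 185 CPM in PC, and 296 and 1360 CPM in NC. All 4 libraries of ExDSS and NC were above all 4 of Ex and PC. The same 4 libraries had the high sums of neutrophil markers, and the part this played was not tested. Ddit3 (chr10:127290793-127296288, plus strand), which encodes CHOP, a factor downstream of ATF4 that can promote cell death, followed the same order with smaller differences. It was at 48.1 and 33.5 CPM in ExDSS, 30.5 and 11.9 CPM in Ex, 26.2 and 31.1 CPM in PC, and 35.5 and 87.3 CPM in NC. The lowest of the ExDSS and NC libraries, at 33.5 CPM, was only just above the highest PC library, at 31.1 CPM. Ddit3 overlaps Mars on the other strand, and the sources used here do not say whether reads were counted by strand, so reads of both may be shared. Within libraries, Ddit3 had 0.0499 and 0.0422 counts for each Atf4 count in ExDSS, 0.208 and 0.0825 in Ex, 0.139 and 0.168 in PC, and 0.120 and 0.0641 in NC.

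Hspa5 (chr2:34772090-34776529, plus strand) and Hsp90b1 (chr10:86690841-86705444, minus strand) encode BiP and GRP94, the main chaperones of the ER lumen, and both are textbook targets of ATF6 and XBP1. Their upstream sequences are shown because they carry the elements through which this control is known to work, and because the ratio of the pair varied between these libraries. The windows are the 250 bases before the RefSeq transcript start on build GRCm38.p6, written along the gene's own strand, with motif matches in capitals. The Hspa5 window is chr2:34771840-34772089 on the plus strand, that of Hsp90b1 chr10:86705445-86705694 on the minus strand and that of Herpud1 chr8:94386179-94386428 on the plus strand.
Hspa5: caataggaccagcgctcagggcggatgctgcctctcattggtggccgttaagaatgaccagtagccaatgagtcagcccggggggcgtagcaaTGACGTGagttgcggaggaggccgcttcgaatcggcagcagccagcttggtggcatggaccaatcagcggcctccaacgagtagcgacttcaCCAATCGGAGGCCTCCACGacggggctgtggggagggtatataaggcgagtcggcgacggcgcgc
Hsp90b1: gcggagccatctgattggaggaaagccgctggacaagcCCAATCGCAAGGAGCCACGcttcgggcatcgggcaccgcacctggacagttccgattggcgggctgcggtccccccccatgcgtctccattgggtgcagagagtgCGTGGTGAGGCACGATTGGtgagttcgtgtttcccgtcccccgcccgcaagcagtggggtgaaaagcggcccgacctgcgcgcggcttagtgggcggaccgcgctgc
Herpud1: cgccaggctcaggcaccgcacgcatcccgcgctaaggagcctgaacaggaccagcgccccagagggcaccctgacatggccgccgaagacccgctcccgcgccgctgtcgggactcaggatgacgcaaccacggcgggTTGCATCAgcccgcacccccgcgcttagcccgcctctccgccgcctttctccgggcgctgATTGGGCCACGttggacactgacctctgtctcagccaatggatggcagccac
Of the 10 genes, 8 had a window, Creb3l1 and Ern2 not among them. The ER stress element (ERSE), CCAAT and CCACG with any 9 bases between them, searched on both strands like the other motifs, had 1 match in Hspa5, from base 65 to base 47 before the start, and 2 matches in Hsp90b1, from 212 to 194 and, on the complementary strand, from 107 to 89. It occurred in 37 of 32817 windows of this length (0.113%). The second ER stress element (ERSE-II), ATTGG and CCACG with any 1 base between them, matched in Herpud1 from 52 to 42 and in 10 windows in all (0.0305%). TGACGTG, the core of the XBP1 element (UPRE), matched in Hspa5 (1.65% of all windows), and TTGCATCA, a form of the ATF4 element (CARE), in Herpud1 (0.792%). None of the matches overlapped another. The other 5 windows, those of Xbp1, Atf4, Ddit3, Dnajb9 and Sdf2l1, held none of these letter strings. A match is a string of letters and not evidence of binding.

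**Figure D2:**
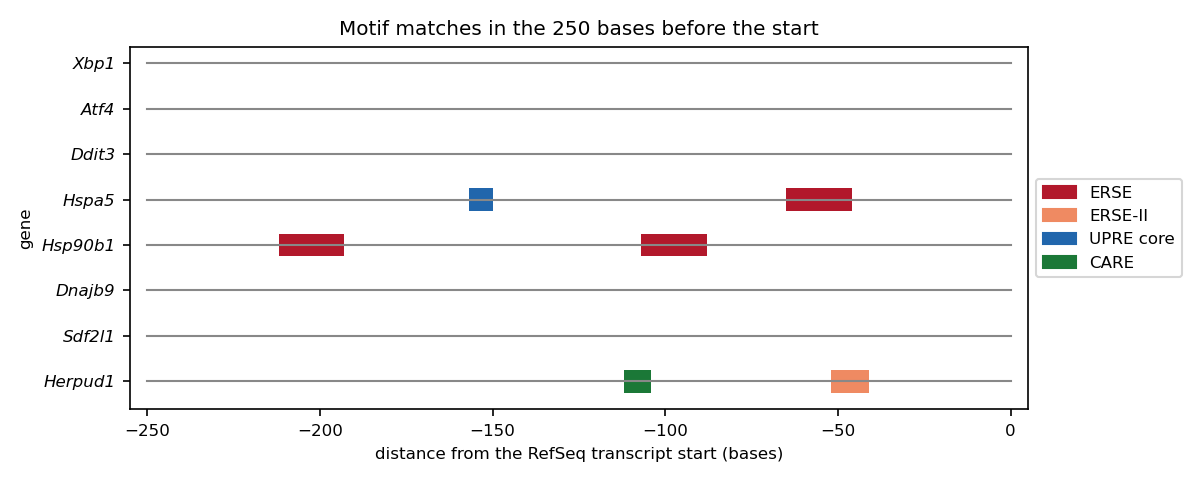
Motif matches in the 250 bases before the RefSeq start of the 8 genes with a window, with distance from the start in bases on the horizontal axis and colour giving the motif. Matches stand in Hspa5, Hsp90b1 and Herpud1, and the other 5 lines are empty.

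Hspa5 differed little between most libraries. It was at 865 and 538 CPM in ExDSS, 426 and 3510 CPM in Ex, 719 and 670 CPM in PC, and 940 and 617 CPM in NC. Apart from Ex 2, all libraries lay between 426 and 940 CPM and the groups overlapped. Hsp90b1 was at 121 and 125 CPM in ExDSS, 489 and 5720 CPM in Ex, 687 and 614 CPM in PC, and 379 and 92.9 CPM in NC. The ExDSS libraries, which lay 1.03-fold apart, and NC 2 had the low levels, and Ex 2 the high one. In Ex 2, Hsp90b1 was the gene with rank 5 by count and Hspa5 that with rank 15. That library was the one with 1163147 counts, 53.5% of them of Rn45s, an epithelial marker sum of 41.7 CPM and a goblet cell marker sum of 225 CPM, and the part this played in the high chaperone levels was not tested. The ratio of Hsp90b1 to Hspa5 counts within a library does not depend on scaling. It was 0.140 and 0.233 in ExDSS, 1.15 and 1.63 in Ex, 0.956 and 0.917 in PC, and 0.402 and 0.150 in NC. Both ExDSS and both NC libraries had lower ratios than all Ex and PC libraries.

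Dnajb9 (chr12:44205897-44210068, minus strand), a co-chaperone of BiP also called ERdj4 and a known XBP1 target, varied least of the 10 genes, with a pooled SD within groups of 0.26 on the log2 scale. It was at 11.4 and 14.2 CPM in ExDSS, 11.4 and 8.93 CPM in Ex, 11.1 and 12.0 CPM in PC, and 14.0 and 9.34 CPM in NC, and all 4 groups overlapped. In Ex 2 this level rests on 6 counts. Sdf2l1 (chr16:17130138-17132383, minus strand), an ER protein that works with BiP and its co-chaperones, was at 42.0 and 7.29 CPM in ExDSS, 28.4 and 32.8 CPM in Ex, 47.3 and 37.4 CPM in PC, and 67.4 and 31.4 CPM in NC. The ExDSS libraries were 5.76-fold apart, with both Ex libraries and PC 2 between them and PC 1 above both. Herpud1 (chr8:94386500-94395358, plus strand), a membrane protein of ER-associated degradation, was at 5.49 and 104 CPM in ExDSS, 60.2 and 84.9 CPM in Ex, 61.3 and 79.0 CPM in PC, and 56.1 and 12.2 CPM in NC. Its low levels were in ExDSS 1 and NC 2, the libraries with pancreatic acinar genes, while ExDSS 2 had its highest level. No direction can be read for Sdf2l1 or Herpud1 in ExDSS from libraries so far apart.

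**Figure D3:**
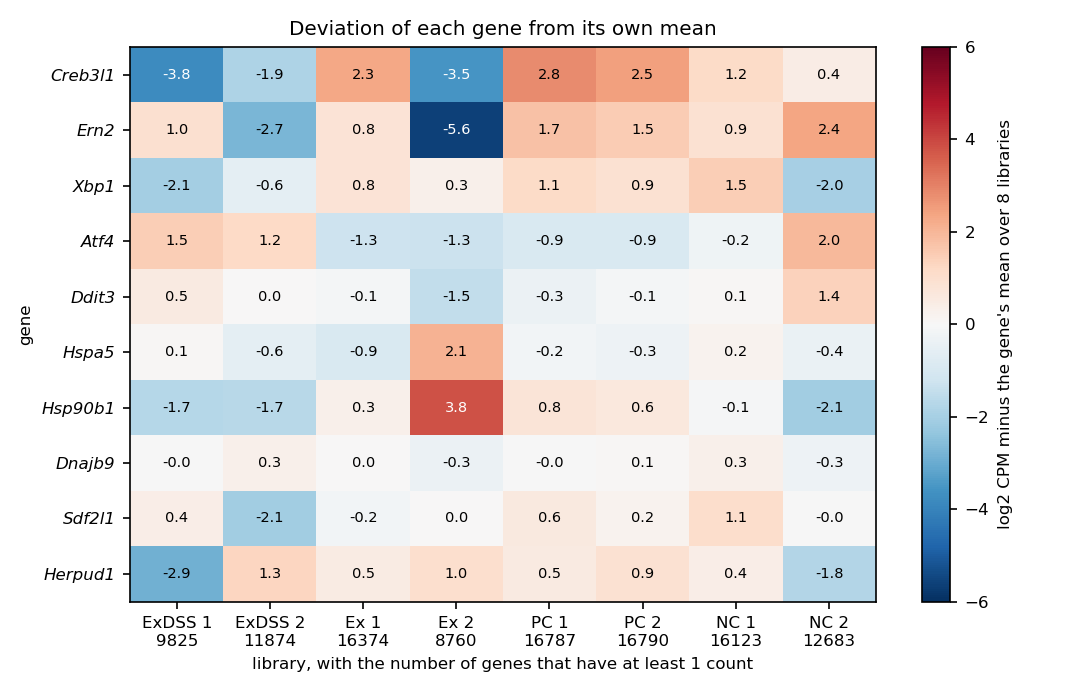
Deviation of each gene's log2 CPM from its own mean over the 8 libraries, with libraries in columns and the number of genes that have a count under each name. The upper rows show Creb3l1 low in both ExDSS libraries and in Ex 2, and the Hsp90b1 row shows the single high value of Ex 2.

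The comparison of exosomes before DSS with DSS alone asks, with the labels as given, what the pretreatment changed in DSS-treated mice. It rests on the label PC, where the neutrophil markers summed to 10.5 to 11.5 CPM, against 2140 to 2340 CPM in NC. Set against NC, ExDSS overlapped in Atf4, at 965 and 794 CPM in ExDSS and 296 and 1360 CPM in NC. ExDSS also overlapped NC in Ern2, Xbp1, Hsp90b1 and Ddit3, and lay below NC in Creb3l1. The share over all genes was not determined for ExDSS against NC, so these positions are a description only. Creb3l1 averaged 3.21 ± 2.80 CPM in ExDSS, against 123 ± 22.0 CPM in PC (SD, n = 2 each), a log2 fold change of -5.25 (SE 1.71). Hsp90b1 averaged 123 ± 2.93 CPM in ExDSS, against 651 ± 51.6 CPM in PC (-2.40, SE 1.56), and Xbp1 23.0 ± 15.7 CPM in ExDSS, against 102 ± 11.6 CPM in PC (-2.15, SE 1.36). Atf4 averaged 879 ± 121 CPM in ExDSS, against 187 ± 2.70 CPM in PC (2.23, SE 1.39). Each SE was derived from the F statistic of edgeR's quasi-likelihood test. Of the 10 genes, 4 did not overlap and were lower in ExDSS (Creb3l1, Ern2, Xbp1 and Hsp90b1), against 45.4% of all genes tested, and 2 did not overlap and were higher (Atf4 and Ddit3), against 18.9%. The higher level of Ddit3 turned to a log2 fold change of -0.01 with scaling by total counts. The median of the 10 genes was -0.57, beside -0.51 for all 14567 genes, so the members as a group were close to the whole. Hspa5, at 701 ± 232 CPM in ExDSS, against 694 ± 34.8 CPM in PC, had a log2 fold change of 0.01 (SE 1.44). edgeR called 0 of the 10 genes and 0% of all genes at an adjusted p under 0.05. At an unadjusted p under 0.05 it had 1 of the 10 and 2763 of all genes, and DESeq2 called 1 of the 10, Creb3l1, and 1526 of all.

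DSS within exosome-treated mice was compared as ExDSS against Ex. Atf4 averaged 879 ± 121 CPM in ExDSS, against 146 ± 1.71 CPM in Ex (SD, n = 2 each; log2 fold change 2.59, SE 1.41). Xbp1 was at 23.0 ± 15.7 CPM in ExDSS, against 75.5 ± 18.3 CPM in Ex (-1.72, SE 1.34). Hsp90b1 had a log2 fold change of -4.65 (SE 1.72), and without Ex 2 it was -1.95. For Creb3l1 the log2 fold change of -3.94 (SE 1.61) turned to 1.29 without Ex 1, which leaves Ex 2 with its 1 count. For Hspa5 the value of -1.49 (SE 1.47) was 0.77 without Ex 2. Here 2 of the 10 genes did not overlap and were higher in ExDSS (Atf4 and Ddit3) and 2 were lower (Xbp1 and Hsp90b1), against 17.0% of all genes tested in each direction. The median of the 10 genes was -0.36, beside -0.29 for all genes, and it was 0.26 without Ex 1. edgeR called 0 of the 10 genes and 0% of all, with 2 and 2881 at an unadjusted p under 0.05, and DESeq2 called 2 of the 10, Creb3l1 and Hsp90b1, and 2046 of all.

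DSS without pretreatment was compared as PC against NC, with the labels as given. Atf4 averaged 187 ± 2.70 CPM in PC, against 829 ± 754 CPM in NC (SD, n = 2 each; log2 fold change -2.15, SE 1.39), and Ddit3 28.7 ± 3.47 CPM in PC, against 61.4 ± 36.6 CPM in NC (-1.10, SE 1.32). Creb3l1 averaged 123 ± 22.0 CPM in PC, against 34.9 ± 12.0 CPM in NC (1.82, SE 1.47), and Hsp90b1 651 ± 51.6 CPM in PC, against 236 ± 202 CPM in NC (1.47, SE 1.51). Herpud1 was at 70.1 ± 12.5 CPM in PC, against 34.1 ± 31.0 CPM in NC (1.04, SE 1.38). The means of NC rest on libraries that differed 4.61-fold in Atf4 and 4.07-fold in Hsp90b1: without NC 2 the log2 fold changes were -0.66 and 0.79. Without NC 2 that of Ddit3 was -0.30 and that of Herpud1 0.33, and without NC 1 Herpud1 was at 2.53 and Hsp90b1 at 2.82. Without overlap, 3 of the 10 genes were higher in PC (Creb3l1, Hsp90b1 and Herpud1), against 31.0% of all genes tested, and 2 were lower (Atf4 and Ddit3), against 23.6%. For Herpud1 the nearest libraries were PC 1 at 61.3 CPM and NC 1 at 56.1 CPM. The median of the 10 genes was -0.09, beside 0.10 for all genes, and it turned positive without NC 1 (0.38) and with scaling by total counts (0.19). edgeR called 0 of the 10 genes and 0% of all, with 0 and 363 at an unadjusted p under 0.05, and DESeq2 called 0 of the 10 and 86 of all.

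Exosomes alone were compared with saline as Ex against NC. Atf4 was at 146 ± 1.71 CPM in Ex, against 829 ± 754 CPM in NC (SD, n = 2 each; log2 fold change -2.51, SE 1.41), and Ddit3 at 21.2 ± 13.2 CPM in Ex, against 61.4 ± 36.6 CPM in NC (-1.51, SE 1.34). Hsp90b1 averaged 3100 ± 3700 CPM in Ex, against 236 ± 202 CPM in NC (3.72, SE 1.65), and its log2 fold change was 1.08 without Ex 2. Herpud1 was at 72.6 ± 17.4 CPM in Ex, against 34.1 ± 31.0 CPM in NC (1.08, SE 1.39). Without NC 2 the log2 fold changes were -1.05 for Atf4, -0.74 for Ddit3 and 0.33 for Herpud1, and without NC 1 they were -3.32, -2.07 and 2.45. Without Ex 1 that of Ddit3 was -2.49, and without Ex 2 it was -0.97. Of the 10 genes, 2 did not overlap and were higher in Ex (Hsp90b1 and Herpud1), against 11.1% of all genes tested, and 3 were lower (Ern2, Atf4 and Ddit3), against 22.9%. For Ern2 this rests on 17.1 CPM in Ex 1, against 17.9 CPM in NC 1, and on 0 counts in Ex 2. For Herpud1 it rests on 60.2 CPM in Ex 1, against 56.1 CPM in NC 1. In both genes the 95% Poisson intervals of Ex 1 and NC 1 overlapped. The median of the 10 genes was -0.11, beside -0.27 for all genes. Its direction turned with RLE factors (0.39), upper-quartile factors (0.54), DESeq2 (0.38) and without NC 1 (0.49). edgeR called 0 of the 10 genes and 0% of all, with 1 and 774 at an unadjusted p under 0.05, and DESeq2 called 1 of the 10, Hsp90b1, and 337 of all.

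**Figure D4:**
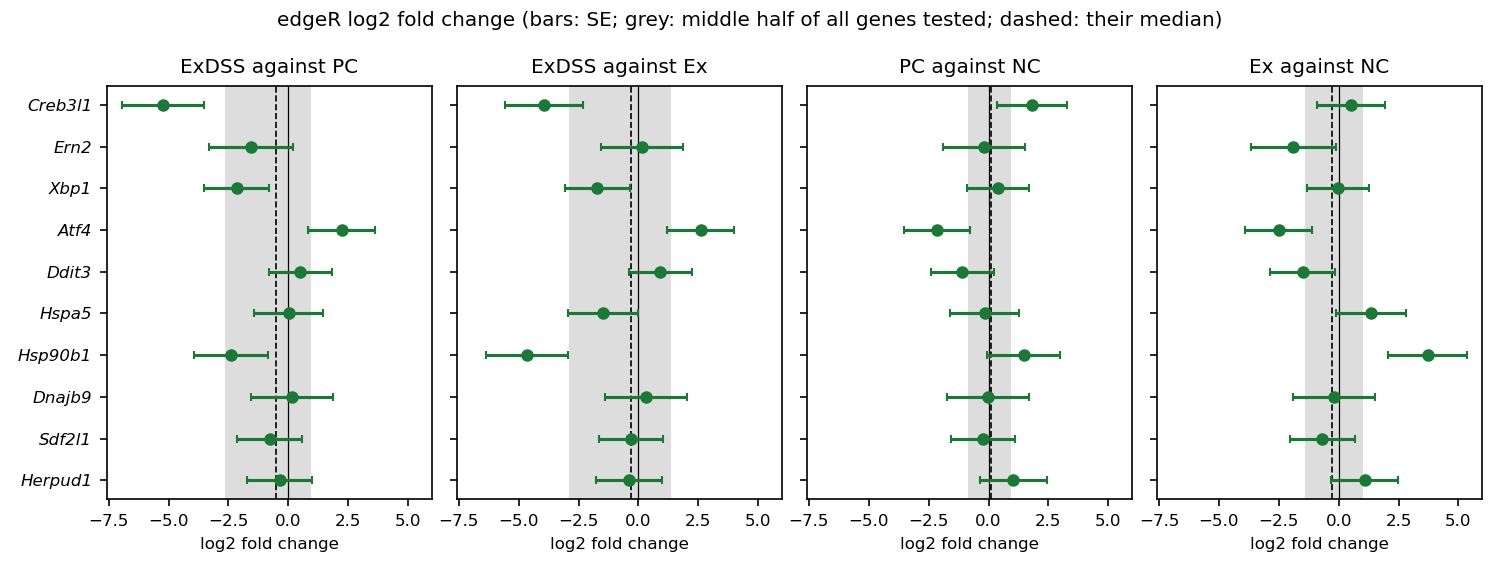
edgeR log2 fold changes of the 10 genes in the 4 comparisons, with bars of 1 SE, the interquartile range of all genes tested in grey and their median dashed. Creb3l1 in ExDSS against PC (-5.25) and Hsp90b1 in Ex against NC (3.72) lie outside the grey band, and Hspa5 in ExDSS against PC (0.01) and Dnajb9 lie within it.

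These comparisons share libraries with each other, so their values are not independent. The DSS difference with exosomes minus that without them, tested as an interaction, had edgeR values of -6.12 (SE 2.26) for Hsp90b1, -5.77 (SE 2.17) for Creb3l1 and 4.74 (SE 1.98) for Atf4 on the log2 scale. The other members ran from -2.11 for Xbp1 to 2.02 for Ddit3. Over all genes the median was -0.58 and the interquartile range -3.57 to 1.75. Of all genes, 14.6% lay below Hsp90b1, 15.7% below Creb3l1 and 92.6% below Atf4. The direction for Hsp90b1, Creb3l1 and Atf4 held in all 18 alternatives that keep the labels, at between -7.34 and -2.78, between -7.16 and -0.59, and between 3.06 and 5.63. For Hsp90b1 and Atf4 neither ExDSS and Ex nor PC and NC overlapped, so leaving out libraries could hardly turn it. The sizes of the interaction rest on the labels PC and NC, against which the neutrophil markers go. With the labels PC and NC exchanged, an alternative chosen after seeing the data, the edgeR values were -3.19 (SE 2.14) for Hsp90b1, -2.12 (SE 2.04) for Creb3l1 and 0.44 (SE 1.89) for Atf4, and 0 genes were called, with 885 at an unadjusted p under 0.05. edgeR called 0 of the 10 genes here, beside 42 of all genes tested (0.288%), with 3 and 2741 at an unadjusted p under 0.05. DESeq2 called 2 of the 10, Creb3l1 and Hsp90b1, and 1672 of all.

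The other genes of the pathway were described over 5 lists that hold 97 genes, of which 94 were tested and Ern1, Sesn2 and Fgf21 were too low. edgeR called 0 of the 94 genes in each of the 4 comparisons and in the interaction. Over all genes it called 0% in each comparison and 0.288% in the interaction. In ExDSS against PC, 10 of the 94 (10.6%) had an unadjusted p under 0.05, below the 19.0% of all genes tested, and in PC against NC it was 0 of the 94, beside 2.49% of all genes. The 24 tested targets of ATF4 and CHOP showed a median of 0.69 in log2 fold change between ExDSS and PC, with 17 positive and 7 negative, beside -0.51 for all genes. In PC against NC their median was -0.17, with 11 positive and 13 negative, beside 0.10 for all genes. Asns, asparagine synthetase and a textbook ATF4 target, was at 191 and 49.7 CPM in ExDSS, 9.39 and 1.49 CPM in Ex, 17.2 and 13.1 CPM in PC, and 32.1 and 95 CPM in NC. Atf5, a related transcription factor, was at 155 and 98.8 CPM in ExDSS, 33.2 and 0 CPM in Ex, 16.8 and 22.8 CPM in PC, and 55.5 and 142 CPM in NC. In both genes, as in Atf4, ExDSS lay above Ex and PC in every library. Of the 24 targets, 10 did not overlap and were higher in ExDSS than in PC and 5 were lower, and against Ex 9 were higher and 2 lower. Over all genes tested the shares were 18.9% higher and 45.4% lower against PC, and 17.0% in each direction against Ex. Chosen after its values were seen, Gdf15, a stress cytokine, was at 29.5 and 76.0 CPM in ExDSS, 10.6 and 0 CPM in Ex, 3.71 and 5.41 CPM in PC, and 8.88 and 27.3 CPM in NC. Slc7a5, an amino acid transporter chosen in the same way, was at 10.4 and 11.2 CPM in ExDSS, 0.306 and 0 CPM in Ex, 0.436 and 0.471 CPM in PC, and 0.398 and 0 CPM in NC. Unlike Atf4, Asns and Atf5, it was not higher in both NC libraries than in PC. In Psat1, Cth and Cebpb, ExDSS did not lie above Ex and PC in every library. Psat1, a serine synthesis enzyme, had no count in ExDSS and 10.4 and 4.71 CPM in PC, which makes it at least 22.8-fold lower in ExDSS against a floor of 3 counts per library. Cth, which makes cysteine, was at 0 and 3.10 CPM in ExDSS, against 79.4 and 62.1 CPM in PC. Cebpb was at 30.3 and 23.2 CPM in ExDSS, 5.92 and 99.8 CPM in Ex, 6.18 and 7.06 CPM in PC, and 44.7 and 24.7 CPM in NC.

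The 23 ER chaperones and folding enzymes showed a median of -0.38 in log2 fold change between ExDSS and PC, with 9 positive and 14 negative, and of 0.06 in PC against NC. Over all genes these medians were -0.51, with 40.6% positive, and 0.10, so this list lay near the whole. Pdia4, a disulfide isomerase that works with BiP, was at 0 and 0.670 CPM in ExDSS, 42.2 and 16.4 CPM in Ex, 45.4 and 41.2 CPM in PC, and 20.1 and 8.48 CPM in NC. Pdia5, of the same family, was at 0 and 0.0837 CPM in ExDSS, 14.1 and 40.2 CPM in Ex, 26.8 and 18.4 CPM in PC, and 4.51 and 2.19 CPM in NC. In both isomerases, as in Creb3l1, the ExDSS libraries were below all NC libraries and those below all PC libraries. Txndc5, another enzyme of that family, was at 0.549 and 7.2 CPM in ExDSS, against 69.4 and 48.1 CPM in PC. Sil1, which exchanges the nucleotide of BiP, was higher in ExDSS than in PC, at 99.3 and 47.6 CPM in the ExDSS libraries, 29.8 and 23.6 CPM in PC, and 36.4 and 153 CPM in NC. Ero1l, which oxidises the isomerases, was at 19.0 and 13.4 CPM in PC, against 51.7 and 49.7 CPM in NC.

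For ER-associated degradation the median was -0.24 in ExDSS against PC over 17 genes, with 7 positive and 10 negative, and 0.05 in PC against NC, also beside -0.51 and 0.10 over all genes. Vimp, a selenoprotein of the retrotranslocation complex, was at 14.3 and 29.6 CPM in the ExDSS libraries, 301 and 292 CPM in PC, and 260 and 52.9 CPM in NC. The ubiquitin-conjugating enzyme gene Ube2g2 was at 0.686 and 7.29 CPM in the ExDSS libraries, 32.9 and 32.7 CPM in PC, and 14.2 and 11.2 CPM in NC. Sel1l, the scaffold of the main degradation ligase, was at 235 and 57.0 CPM in ExDSS, 31.2 and 107 CPM in Ex, 41.2 and 39.7 CPM in PC, and 59.2 and 92.5 CPM in NC. Edem2, a mannose-trimming enzyme, was at 11.9 and 10.7 CPM in PC, against 5.90 and 1.14 CPM in NC, and the lectin gene Os9 at 55.1 and 58.5 CPM in PC, against 76.9 and 170 CPM in NC. The 21 genes of translocation and early secretory transport had medians of -0.57 in ExDSS against PC and 0.28 in PC against NC, with the same medians over all genes beside them. Spcs3, of the signal peptidase, was at 4.53 and 9.71 CPM in ExDSS, against 40.6 and 40.6 CPM in PC, the vesicle coat gene Sec31a at 14.3 and 13.7 CPM in ExDSS, against 59.3 and 48.6 CPM in PC, and the channel gene Sec61b at 52.7 and 70.2 CPM in the ExDSS libraries, 234 and 205 CPM in PC, and 125 and 30.5 CPM in NC. Tram1, which assists the channel, was at 97.5 and 91.2 CPM in PC, against 66.0 and 19.3 CPM in NC. Sec61a1, the gene of the main channel subunit, was at 194 and 145 CPM in PC, against 344 and 306 CPM in NC.

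**Figure D5:**
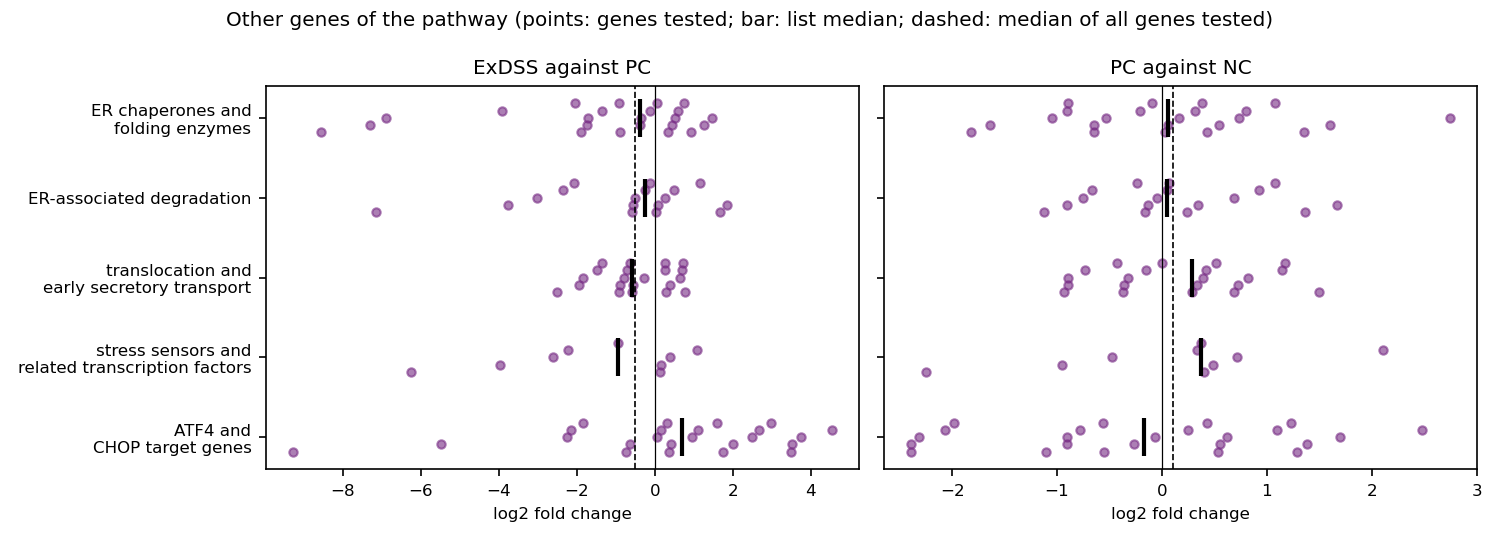
edgeR log2 fold changes of the 94 tested genes of the 5 pathway lists in ExDSS against PC and in PC against NC, with 1 point per gene, a bar at each list's median and the median of all genes dashed. In ExDSS against PC the median of the ATF4 and CHOP targets is 0.69 and those of the other 4 lists lie between -0.93 and -0.24.

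The sensors and related factors, with 9 of 10 genes tested, had medians of -0.93 in ExDSS against PC and 0.37 in PC against NC. Eif2ak3, which encodes PERK, was at 0.137 and 0.0837 CPM in ExDSS, a single count in each library, 5.72 and 40.2 CPM in Ex, 10.5 and 7.92 CPM in PC, and 13.5 and 0.667 CPM in NC. Atf6 was at 0 and 9.97 CPM in the ExDSS libraries, 22.5 and 24.3 CPM in PC, and 19.2 and 9.43 CPM in NC, and Creb3l4 at 5.62 and 0 CPM in ExDSS, against 18.8 and 15.5 CPM in PC. Atf6b was at 25.9 and 28.6 CPM in PC, against 7.09 and 5.53 CPM in NC, and Creb3 at 62.6 and 64.1 CPM in PC, against 71.9 and 104 CPM in NC. The messenger RNA of PERK was thus at 1 count in each ExDSS library, where Atf4 was at 794 to 965 CPM. Transcript levels alone do not show the activity of either protein.

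Over the 8 libraries, Atf4 and Ddit3 had the highest correlation among the 45 pairs of the 10 genes (Pearson r = 0.793 in log2 CPM), and Ddit3 and Hsp90b1 the lowest (-0.910). Xbp1 and Herpud1 followed at 0.788 and Hspa5 and Hsp90b1 at 0.735. These values are a description: the libraries share groups, depth and the acinar RNA given above, and a single library such as Ex 2 can set them. Among 10398 genes with a mean of at least 5 CPM, those most like Creb3l1 were Pla2g4a (r = 0.997), Gstm7 (0.993), Plgrkt, Sdr42e1 and Txndc16 (0.990 each). Each of these 5 had no count in ExDSS 1 and in Ex 2. Creb3l1 had its lowest levels in the same libraries, 1.23 and 1.49 CPM. Those most like Hspa5 were Ube2d2a (0.988), Med14 (0.985), the ER genes Pdia6 (0.980) and Calr (0.969), and Psme3 (0.969). Calr, an ER chaperone for glycoproteins, was at 408 and 283 CPM in ExDSS, 182 and 2600 CPM in Ex, 294 and 211 CPM in PC, and 319 and 218 CPM in NC. As in Hspa5 and Hsp90b1, the level of Ex 2 stood above all others.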

How the data were processed

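Total RNA was extracted with Trizol and libraries were made with the QuantSeq 3' mRNA-Seq kit, per the labels' protocols. The deposited table holds raw counts per gene, 1 column per library. Bowtie2, bedtools, edgeR and mouse build mm9 are named in the submitters' processing notes, without roles or versions. The table's coordinates overlapped the GRCm38 gene of the same name for 22071 of 22139 names matched (99.69%), and for all 10 genes described. Repeated gene names were kept as separate lines.

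Counts were fitted with edgeR 4.0.16 in R 4.3.3: TMM factors, filterByExpr (minimum count 10, total 15), 1 coefficient per group over all 8 libraries (4 residual degrees of freedom), and robust quasi-likelihood tests with Benjamini-Hochberg adjustment over 14567 genes, called at 0.05. The code was tested on simulated data. Log2 CPM used a prior count of 2. DESeq2 1.42.0, other scalings and filters, a replicate block and libraries left out were alternatives. Promoter sequences are from RefSeq. The members and lists were chosen with earlier results of these data known. Named pathway genes are the 3 with the smallest p per list in ExDSS against PC and in PC against NC, at a mean of at least 5 CPM. SEs are the absolute log2 fold change over the root of F.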

Additional observations from a re-analysis of the deposited data

Results flagged for a closer look

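Opposite directions of the DSS difference with and without exosomes marked 13 genes: in each, both libraries of ExDSS lay on one side of both Ex libraries while both PC libraries lay on the other side of both NC libraries. The sign of PC against NC decides this, and the neutrophil markers go against these labels. With PC and NC exchanged, all 13 have the same direction with and without exosomes. This follows from the rule that marked them and says nothing about which labels are right. All 13 are among the 10 genes and the 94 tested genes of the lists. Over all genes tested, 17.0% did not overlap in each direction in ExDSS against Ex. In PC against NC, 31.0% did not overlap and were higher and 23.6% lower. The share of all genes that meet both conditions was not determined, so the count of 13 is a description only. The edgeR interaction called none of the 13 over all genes. On the log2 scale its values were 4.74 for Atf4, 2.02 for Ddit3, 6.40 for Asns, 5.18 for Atf5, 5.21 for Sil1, 3.38 for Os9 and 2.65 for Sec61a1. They were -6.12 for Hsp90b1, -7.94 for Pdia4, -11.6 for Pdia5, -3.14 for Spcs3, -5.30 for Ube2g2 and -3.84 for Vimp. The values of Pdia4 and Pdia5 depend on the prior count, since ExDSS held few or no counts of either. In all 13 the sums of neutrophil markers given in the report differ between the same groups, and their part was not tested. With 2 libraries a group no library could be compared with the rest of its own group.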

How the results depend on the processing

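Of the 10 genes, Atf4 and Hsp90b1 kept their direction in all 4 comparisons and the interaction under all 18 alternatives that keep the labels, and Creb3l1 did so in PC against NC, ExDSS against PC and the interaction. In each of these comparisons, the interaction of Creb3l1 apart, the groups did not overlap in the gene named. There, leaving out a library could turn the sign only through a change of scaling, and the unchanged direction is no further evidence. In Creb3l1, ExDSS and Ex overlapped, and the log2 fold change of ExDSS against Ex turned to 1.29 without Ex 1. The interaction of Creb3l1 ran from -7.16 to -0.59 over these alternatives. With a single library left out, edgeR called 0 to 4 genes in PC against NC, 0 to 6 in ExDSS against PC, 0 to 1596 in Ex against NC, 0 to 1883 in ExDSS against Ex and 0 to 1663 in the interaction, the high ends of the last 3 without Ex 1, and 0 to 1 of the 10 genes, Hsp90b1, in those 3. The median of the 10 genes then ran from -0.29 to 0.38, -0.99 to -0.35, -0.62 to 0.49, -1.48 to 0.26 and -1.61 to -0.27. Without a filter, edgeR called 45, 132, 55, 223 and 350 genes in that order, and DESeq2 86, 1526, 337, 2046 and 1672, with 0, 1, 1, 2 and 2 of the 10 genes. In the interaction the count was 42 in the report, 67 with RLE factors and 6 with total counts, and it was 0 without both libraries that held acinar genes. The median of the 10 genes moved by over the spread between libraries (0.35) with total counts (ExDSS against PC -1.03, Ex against NC -0.56), RLE factors (Ex against NC 0.39, ExDSS against Ex -0.82, interaction -1.24), upper-quartile factors (0.54, -1.18 and -1.64), DESeq2 (0.38, -0.82 and -1.24) and without both libraries with acinar genes (ExDSS against PC -0.99, Ex against NC -0.60, ExDSS against Ex -1.48). Over RLE, upper-quartile and total-count scaling the median of all genes ran from 0.09 to 0.29 in PC against NC, -0.91 to -0.36 in ExDSS against PC, -0.49 to 0.11 in Ex against NC and -0.72 to -0.24 in ExDSS against Ex. With the replicate block, edgeR called 41 genes in ExDSS against PC, 28 in ExDSS against Ex and 161 in the interaction, none of them among the 10. Deviations of same-numbered libraries correlated at between -0.149 and 0.0506 across genes. The low depth of Ex 2 and the acinar RNA of ExDSS 1 and NC 2 enter these deviations. The correlations therefore cannot decide whether the replicate numbers pair the libraries. An alternative chosen after seeing the data left out ExDSS 1, Ex 2 and NC 2 together, so that the spread came from the PC pair alone. It called 3910, 10719, 3603, 9839 and 9646 genes and 3, 7, 5, 7 and 6 of the 10, with medians of -1.01 in ExDSS against PC and -0.27 in the interaction. As 70.5% of all genes were called in ExDSS against PC, these calls say how alike the PC libraries were and not how the groups differ. With the labels PC and NC exchanged, also chosen after seeing the data, the interaction called 0 genes and the median of the 10 genes was -0.35. Where not stated, the cause of a move was not tested.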
